A study of Mus musculus with 8 samples.

Results

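The 10 genes described here are markers and working parts of granulocytes and macrophages, read on arrays of 2 mouse pre-B leukaemia lines after transfection of a microRNA: Lyz2, Mpo, Csf1r, Ctss, Mrc1, P2ry6, Rab7b, Cd14, Itgam and Cebpb. They were chosen by name, as the probes of the array that carry the symbol of a listed gene or an older synonym of it, and the calls of presence in the 4 groups of these same arrays were part of that choice. The 10 genes have 15 of the 55681 probes of the array. Of the 10, 8 passed the filter on dim probes and are among the 18791 genes that could be tested, and Cd14 and Cebpb did not pass. For Rab7b the array carries the older name 5430435G22Rik, matched through its RefSeq transcript.

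One line was 70Z/3, labelled as pre-B lymphoblasts, and the other 18-81, a pre-B line made with the Abelson murine leukaemia virus, so that each kind of cell is represented by 1 line. Each was transfected with 10 nM of a pre-miR-125b duplex or of miR-Neg, a control duplex, both with the same lipid reagent, with fresh medium at 8 h and RNA taken at 48 h. The 4 groups (each line with each duplex) hold 2 arrays each, from 2 independent experiments, so every group mean rests on n = 2, and this number limits all precision. The study looked for genes that miR-125b targets. There was no untransfected group, so a change that the lipid reagent itself brings is shared by all 4 groups.

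Myeloid cells and B cells descend from common blood progenitors. Granulocyte and macrophage genes are driven by transcription factors such as PU.1 and the C/EBP family, and B-lineage factors hold many of these genes low in B-cell precursors. C/EBPβ, the product of Cebpb, is known for its ability to turn B cells into macrophage-like cells. The members divide by role into granule and antimicrobial enzymes (Lyz2, Mpo), surface receptors and adhesion molecules (Csf1r, Mrc1, Cd14, Itgam), the UDP receptor P2ry6, proteins of the endosome and lysosome (Rab7b, Ctss) and the transcription factor Cebpb.

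The microRNA and the probes on which the readings turn are given first. The mature mouse miR-125b-5p, from RefSeq on GRCm38.p6 at chr9:41581940-41581961 on the plus strand, is shown with its seed (bases 2 to 8) in capitals, since the duplex is what separates the groups. The Lyz2 probe is shown because it is the only one of that gene, and the 3 Itgam probes because they gave very different readings. Capitals in the first Itgam probe mark a run of 10 CA units that fills its first 20 bases, of which the first 30 bases are printed, while the other probes are printed whole and have no marked part.
mmu-miR-125b-5p: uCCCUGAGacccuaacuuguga
Lyz2 A_51_P321150: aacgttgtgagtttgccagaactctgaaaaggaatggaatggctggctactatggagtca
Itgam A_55_P1977934: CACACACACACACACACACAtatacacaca
Itgam A_55_P1977929: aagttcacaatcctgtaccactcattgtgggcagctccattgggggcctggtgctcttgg
Itgam A_55_P1977926: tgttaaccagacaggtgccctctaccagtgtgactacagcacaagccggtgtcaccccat
In the mm9 build used by the scanner files, the Lyz2 probe lies at chr10:116719175-116719234 on the minus strand and the Itgam probes at chr7:135261755-135261814, chr7:135260275-135260334 and chr7:135212140-135212199 on the plus strand, starting at bases 4431, 3410 and 270 of the transcript. The files give positions and not whether a probe lies in an exon or a UTR.

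Values are scaled intensities, that is, the background-subtracted spot intensity after each array was scaled to a common 75th percentile of 465.4. A log2 difference is the difference of the group means of their log2 values, given with its standard error, and a fold is the same difference on the linear scale. A probe was present on an array if the scanner software called it well above background there. An array had between 38.9 and 45.7% of its spots above background, and the lowest share and the lowest 75th percentile (335.2, against 499.8 to 712.7 on the others) belonged to replicate 2 of 70Z/3 with miR-Neg. On the log2 scale the median of all genes differed between miR-125b and miR-Neg in 70Z/3 by −0.14 with this scaling, by −0.01 after quantile normalization and by 0.00 in the authors' table. Of 16 B-lineage markers, 14 were present on every array, and Rag1 and Rag2, which cut the immunoglobulin loci, were not above background on any array.

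With miR-Neg 4 members were present on both 70Z/3 arrays (Csf1r, Ctss, Mrc1 and Itgam), and with miR-125b 8 were, the added ones being Lyz2, Mpo, P2ry6 and Rab7b. In 18-81 the same 4 members were present under either duplex, so that 4 of the 8 tested were present on all 8 arrays (77.8% of all genes tested were), and Lyz2, Mpo, P2ry6 and Rab7b were not above background on any of the 4 arrays. In all, 42 of the 80 combinations of member and array were called present. The calls just inside and just outside the threshold lay close together: before scaling, Lyz2 was called at 36.3 and Mpo at 39.1, whereas a second Itgam probe was not called at 38.5.

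**Figure D1:**
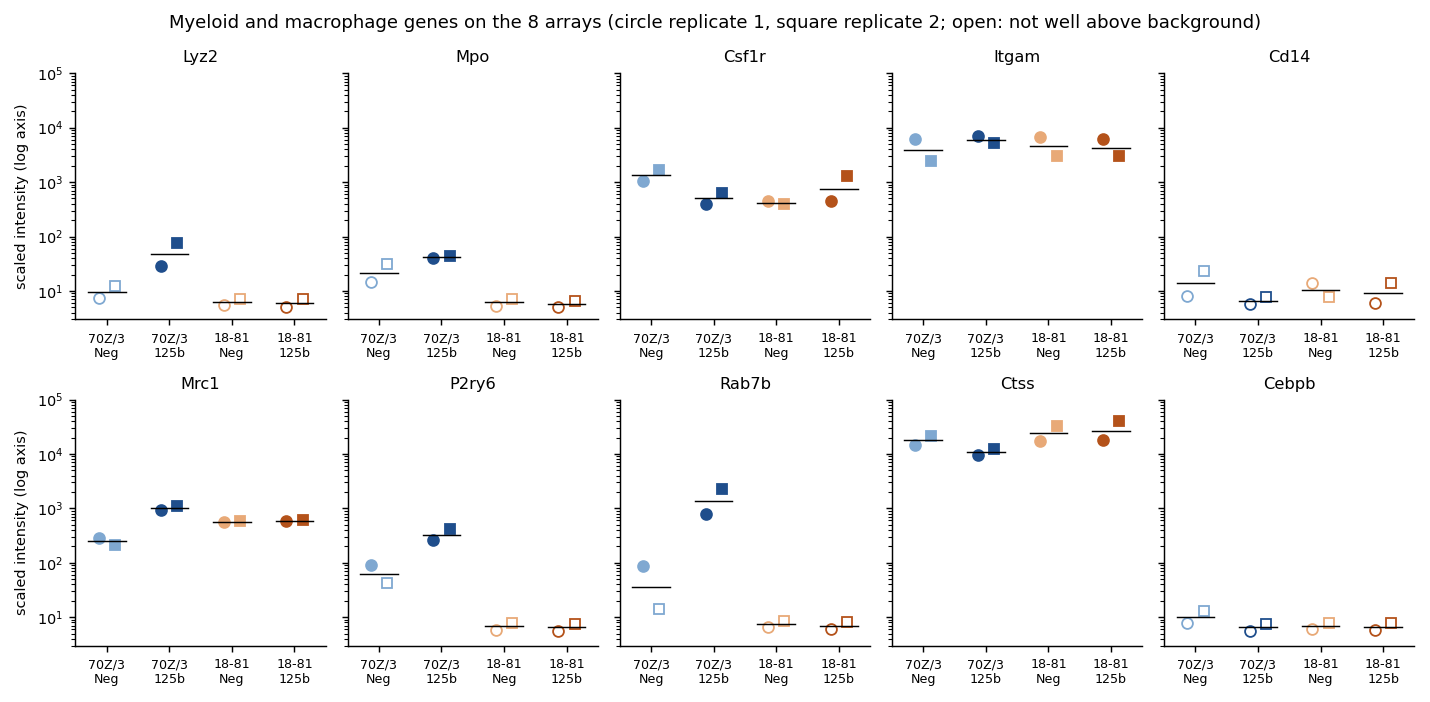
Scaled intensity (log axis) of the 10 genes on the 8 arrays, 1 panel a gene with the 4 groups side by side, circles for replicate 1, squares for replicate 2, open marks for arrays not well above background, bars for the mean of the log2 values. Lyz2, Mpo, P2ry6 and Rab7b are filled on both 70Z/3 arrays with miR-125b and open on all 4 arrays of 18-81, and Cd14 and Cebpb are open throughout. Levels of different panels come from different probes and are not compared.

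Lyz2 encodes lysozyme M, the bacterial wall-cutting enzyme of macrophages and neutrophils. In 70Z/3 its scaled intensity was 7.39 and 12.1 with miR-Neg, not above background on either array, and 29.1 and 75.5 with miR-125b, above background on both. Both treated arrays lay above both control arrays, and the 2 treated arrays differed from each other more than the control arrays did. The measured log2 difference was 2.31 ± 0.48 (n = 2 and 2), 1.98 in replicate pair 1 and 2.64 in pair 2, but since the control lay below background the difference is given as a bound of at least 1.17-fold higher. A bound divides the mean of the brighter group by that of the dimmer group after each dim array's value is raised, where it is below, to the lowest signal called above background on that array. For Lyz2 the bound comes from pair 2 alone, where 75.5 lay over the lowest called signal of the control array, 51. In pair 1 the treated value, 29.1, lay under that of its control array, 31.6, so that pair bounds no increase. In 18-81 the intensities were 5.57 and 7.11 with miR-Neg and 5.17 and 7.00 with miR-125b, with 0 of 4 arrays above background. After miR-125b, Lyz2 was at least 1.77-fold higher in 70Z/3 than in 18-81.

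Mpo encodes myeloperoxidase, which makes hypochlorous acid in neutrophil granules. Its scaled intensity in 70Z/3 was 14.4 and 30.7 with miR-Neg (0 of 2 arrays above background) and 40.9 and 42.9 with miR-125b (2 of 2). As measured the groups did not overlap, but the gap was narrow, at 1.51 in pair 1 and 0.48 in pair 2 on the log2 scale. Relative to the same floor the bound was at least 1.04-fold, too near 1 to show an increase. It comes from pair 1 alone, where 40.9 lay over the control array's lowest called signal, 31.6. In pair 2 the treated value, 42.9, lay under that of its control array, 51, so that pair bounds no increase. The 18-81 arrays gave 5.31 and 7.17 with miR-Neg and 5.04 and 6.66 with miR-125b, all below background, so that after miR-125b the gene was at least 1.58-fold higher in 70Z/3. This probe lies at chr11:87617840-87617899 on the plus strand of mm9, and a second Mpo probe, at chr11:87615121-87615180, was above background on 0 of the 8 arrays.

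P2ry6 encodes a receptor for UDP that stimulates uptake of debris by macrophages and microglia. Its probe (chr7:108086149-108086208, minus strand, mm9) is printed on 10 spots per array. In 70Z/3 the scaled intensity was 89.95 and 42.4 with miR-Neg and 265.0 and 409.9 with miR-125b, so both treated arrays lay above both controls. The log2 difference as measured was 2.42 ± 0.43. Only 1 of the 2 control arrays was above background, so the difference is given as at least 4.86-fold, 2.95-fold in pair 1 and at least 8.03-fold in pair 2. On the first control array all 10 spots were above background, and on the second 0 of 10 were, with unscaled intensities from 13.6 to 42.1 and a coefficient of variation of 29.3%, against 6.3 and 9.1% on the treated arrays. In 18-81 the values were 5.92 and 7.95 with miR-Neg and 5.57 and 7.62 with miR-125b, and no spot was above background. P2ry6 was at least 2.26-fold higher in 70Z/3 than in 18-81 with miR-Neg and at least 12.4-fold higher with miR-125b. In the miR-Neg bound the 70Z/3 value of replicate 2, 42.4, was itself below background.

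Rab7b encodes an endosomal GTPase that moves Toll-like receptors and other cargo between endosomes, lysosomes and the Golgi. In 70Z/3 it gave 88.2 and 14.03 with miR-Neg, above background on the first array alone, and 783.6 and 2303 with miR-125b. Both treated arrays lay far above both controls. The log2 difference as measured was 5.26 ± 0.83. With the second control array raised to the lowest signal called above background there (51), the difference was at least 20-fold, 8.89-fold in pair 1 and at least 45.1-fold in pair 2. As measured, without replicate 2 of the control, the dimmest array, the difference was 3.93, and without replicate 1 it was 6.58. In 18-81 the probe (chr1:133609965-133610024, plus strand, mm9) gave 6.52 and 8.42 with miR-Neg and 5.98 and 8.24 with miR-125b, below background on all 4 arrays. Rab7b was at least 1.29-fold higher in 70Z/3 than in 18-81 with miR-Neg and at least 50.7-fold higher with miR-125b. The miR-Neg bound rests on replicate 1. In replicate 2 the 70Z/3 value, 14.03, was below background and under the lowest called signal of the 18-81 array, 30.7.

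Mrc1 encodes the mannose receptor, which binds glycans on microbes and on the body's own glycoproteins. Unlike the members above, it was present on all 8 arrays, so its folds are measured on both sides. In 70Z/3 its scaled intensity was 280.9 and 216.3 with miR-Neg and 926.5 and 1109 with miR-125b. The log2 difference was 2.04 ± 0.27 (4.11-fold), 1.72 in pair 1 and 2.36 in pair 2, and between 1.67 and 2.23 under the other settings tried. In 18-81 the values lay between the 70Z/3 groups and close together, at 557.8 and 586.1 with miR-Neg and 594.3 and 599.2 with miR-125b, a log2 difference of 0.06 ± 0.27. With miR-Neg the gene was 2.32-fold higher in 18-81 than in 70Z/3, and with miR-125b the 70Z/3 arrays were the higher ones. Its probe lies at chr2:14253273-14253332 on the plus strand of mm9.

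**Figure D2:**
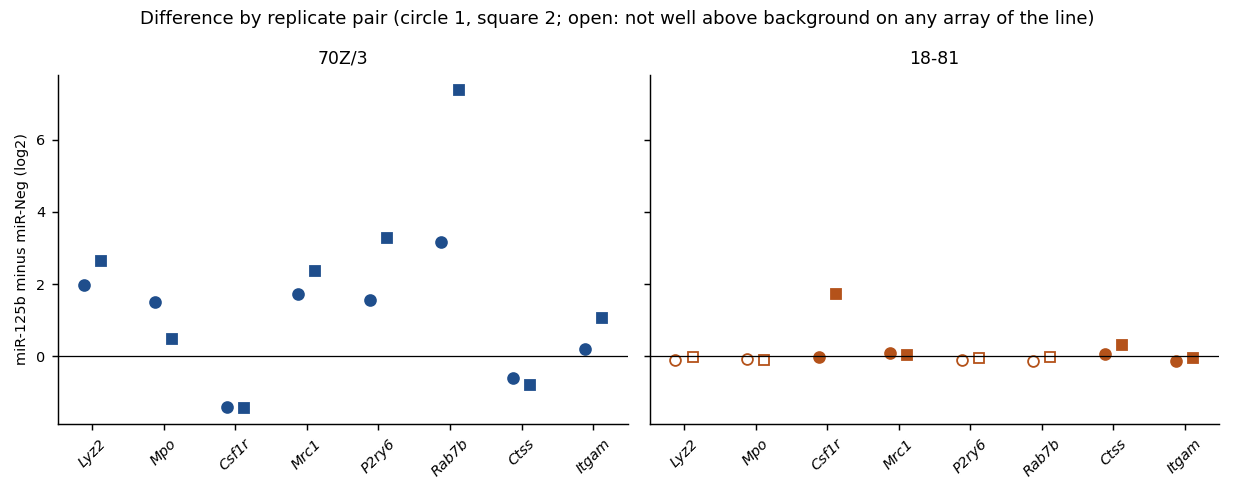
Log2 difference of miR-125b minus miR-Neg for each replicate pair (circle pair 1, square pair 2) of the 8 tested members, 70Z/3 left and 18-81 right, as measured, open marks where the gene was not above background on any array of the line. The pair 2 marks of P2ry6 and Rab7b and both of Lyz2 and Mpo in 70Z/3 rest on control arrays below background. In 70Z/3 the Rab7b pairs stand at 3.15 and 7.36 and the Csf1r pairs at −1.40 and −1.43, while in 18-81 the only pair beyond 1 is that of Csf1r in replicate 2, at 1.72.

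Ctss encodes cathepsin S, the lysosomal protease that trims the invariant chain of MHC class II in B cells and macrophages, so its presence here is no mark of myeloid cells. It was bright on every array. In 70Z/3 the scaled intensity was 14760 and 21720 with miR-Neg and 9763 and 12460 with miR-125b, both treated arrays lying below both controls, with a log2 difference of −0.70 ± 0.49. In 18-81 it was 17250 and 33090 with miR-Neg and 17810 and 40860 with miR-125b, and there the arrays of the 2 replicates differed more than those of the 2 duplexes. The log2 difference in 18-81 was 0.18 ± 0.49, with pairs at 0.05 and 0.30. It was 0.77 without miR-125b replicate 1 and −0.42 without replicate 2, so its sign rests on which arrays are kept.

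Csf1r encodes the receptor for CSF1, the main growth factor of macrophages, and its 3 probes did not tell 1 story. The brightest, which starts at base 3806 of the transcript, gave 1060 and 1679 in 70Z/3 with miR-Neg and 401.2 and 623.1 with miR-125b, a log2 difference of −1.42 ± 0.52 with nearly equal pairs (−1.40 and −1.43). The probe at base 1841 was also present on all 8 arrays and showed no such gap: 276.2 and 164.5 with miR-Neg against 251.8 and 196.4 with miR-125b, a log2 difference of 0.06. The probe at base 2871 was not above background on any 70Z/3 array and was above it on all 4 arrays of 18-81, at 36.7 and 122.1 with miR-Neg and 42.1 and 97.7 with miR-125b.

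The line difference of Csf1r therefore turned with the probe. With miR-Neg the brightest probe was lower in 18-81 (445.7 and 388.0 there) by 1.68 on the log2 scale, the probe at base 1841 differed by −0.22, and the probe at base 2871 was at least 1.67-fold higher in 18-81. After miR-125b in 18-81 the brightest probe gave 442.0 and 1279, so that pair 1 was at −0.01 and pair 2 at 1.72, and the array of replicate 2 stood alone. With the mean of its probes in place of the brightest, the difference for Csf1r between the duplexes in 70Z/3 was −0.18. Which transcripts the probes share was not tested.

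**Figure D3:**
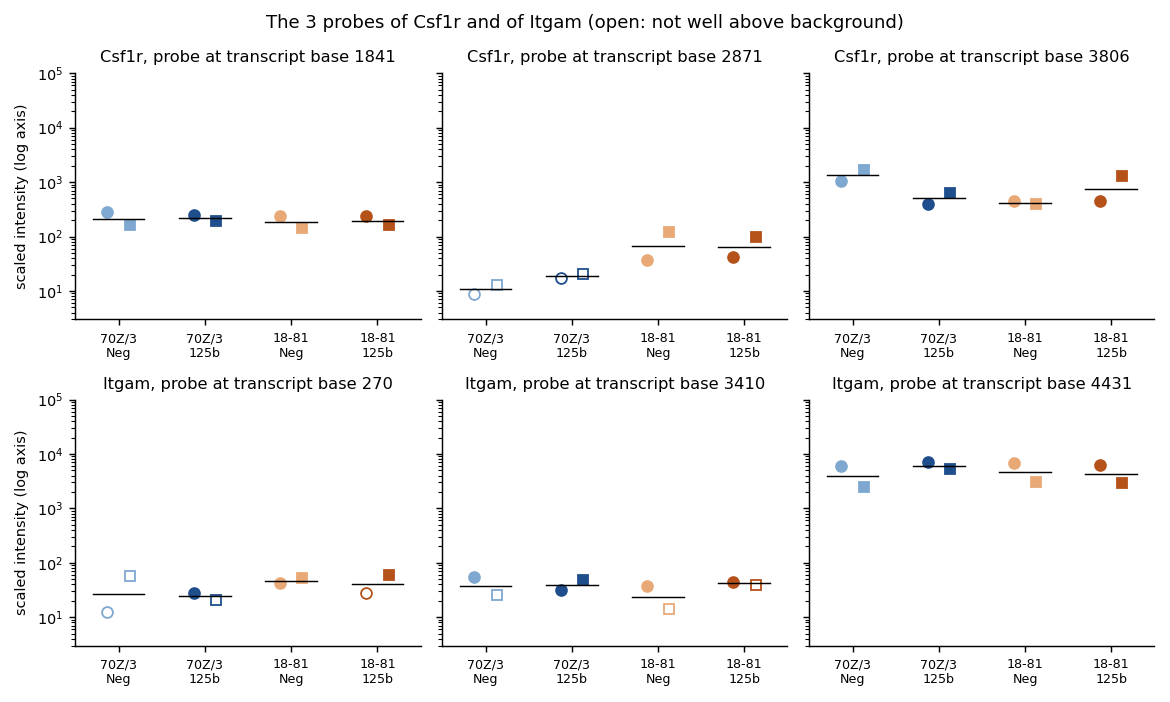
Scaled intensity (log axis) of the 3 probes of Csf1r (top) and of Itgam (bottom), ordered by their start in the transcript, in the 4 groups; circles are replicate 1, squares replicate 2, open marks not well above background, bars the mean of the log2 values. The Csf1r probe at base 2871 is filled in 18-81 alone, and the Itgam probe at base 4431 is filled on all 8 arrays while the other Itgam probes are filled on some.

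Itgam encodes CD11b, the integrin α chain that pairs with CD18 on macrophages, neutrophils and natural killer cells. The brightest of its 3 probes was present on all 8 arrays, at 6117 and 2483 in 70Z/3 with miR-Neg, 7024 and 5208 with miR-125b, 6816 and 3076 in 18-81 with miR-Neg and 6285 and 2962 with miR-125b. In every group replicate 1 was the brighter, and the log2 difference between the duplexes was 0.63 ± 0.58 in 70Z/3 and −0.09 ± 0.58 in 18-81. This is the probe that starts with the CA run printed above. The other probes were near background. The probe at base 3410 gave 54.8 and 25.6, 31.8 and 49.2, 37.1 and 14.4, and 45.01 and 38.8 in the 4 groups in the same order, above background on 5 of 8 arrays. The probe at base 270 gave 12.5 and 56.6, 28.2 and 21.2, 42.8 and 51.6, and 27.6 and 58.7, above background on 4 of 8.

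Other probes with such a run were mostly bright on every array too. Of the 55681 probes, 35 hold a run of at least 8 CA units, and 32 of these (91.4%) were above background on all 8 arrays, against 34.4% of all probes. Of 18 named genes that have both a CA-run probe and another probe, 17 were present on all 8 arrays by the former and 7 by the latter, and 8 of the 18 were above background on 0 arrays by the latter. Of the 33 genes tested through a CA-run probe, the median log2 difference between the duplexes was 0.46 in 70Z/3 and −0.05 in 18-81, though single genes departed from it (Cat at 0.07 and −0.24, Pura at 0.02 and 0.24). The genes nearest to Itgam in pattern were Fgf23 (r = 0.999) and Hexim2 (r = 0.999), which both stand on CA-run probes, and Fmnl1 (r = 0.998), which does not. The other Fgf23 probe was above background on 0 arrays. Without the CA-run probe the Itgam reading rests on the calls of the 2 other probes, on 5 and 4 of the 8 arrays.

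Cd14 encodes the co-receptor that hands lipopolysaccharide to Toll-like receptor 4, and Cebpb the transcription factor described above. Each has 1 probe, and both were above background on 0 of the 8 arrays. No fold is given for them, since both sides lie below background. In bulk RNA, a few cells with much of a transcript and many cells with little of it cannot be told apart, which holds for every member above.

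Over the members as a group, the 70Z/3 duplex values are a description, since they were in view when the members were chosen. Among the 8 tested members, both miR-125b arrays lay above both controls for 5 (Lyz2, Mpo, Mrc1, P2ry6 and Rab7b) and below both for 2 (Csf1r and Ctss), where 14.9% and 22.8% of all genes tested did so. The median log2 difference of the 8 was 1.52, and that of all genes −0.14. Lyz2, Mpo, P2ry6 and Rab7b passed the filter only through the group of 70Z/3 with miR-125b. Their place in the counts of this paragraph and in the median is therefore largely set by the filter. Nothing is read from the comparison with all genes. Lyz2 and Mpo were present on both treated arrays and on 0 control arrays, as were 2.16% of all genes, while 0.0958% of genes showed the reverse. The control group holds the dimmest array, and the part of that array in the calls of Lyz2 and Mpo was not tested. By limma's test with Benjamini-Hochberg adjustment over all genes, 0% of genes passed an adjusted p of 0.05 in 70Z/3, and 1111 genes (5.91%) had an unadjusted p below 0.05.

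In 18-81, 0 of the 8 members passed the adjusted threshold (0% of all genes did, limma), with 0 members and 1.23% of all genes at an unadjusted p below 0.05. The 4 members that were present there by their brightest probe had log2 differences of 0.85 ± 0.52 (Csf1r), 0.18 ± 0.49 (Ctss), 0.06 ± 0.27 (Mrc1) and −0.09 ± 0.58 (Itgam, by its CA-run probe), each with an adjusted p = 1. Both miR-125b arrays lay above both controls for 1 of the 8 (8.3% of all genes) and below both for 0 (4.83%). The median over the 8 tested members was −0.07, and over all genes it was 0.03. Lyz2, Mpo, P2ry6 and Rab7b enter these counts and this median with readings below background on all 4 arrays, where a fall could not show. A lack of effect on them is not read from these values. The difference between the lines' duplex effects passed the adjusted threshold for 0% of genes (limma), with 613 genes (3.26%) at an unadjusted p below 0.05. That difference, 18-81 minus 70Z/3, was −1.98 ± 0.39 for Mrc1. It has no measured value for Lyz2, Mpo, P2ry6 and Rab7b, which were below background in 18-81.

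Between the lines, 4 of the 8 members (Lyz2, Mpo, P2ry6 and Rab7b) had all 4 arrays of 18-81 below all 4 of 70Z/3, as did 17.4% of all genes. The same 4 members were present on both arrays of a 70Z/3 group and on 0 of the 18-81 arrays, as were 4.82% of all genes. With miR-Neg alone, 3 of the 8 passed the adjusted threshold of limma, Mpo and P2ry6 with lower values in 18-81 and Mrc1 with higher ones, beside 21.7% of all genes. Mpo was below background on all 4 of these arrays, so its call compares readings below background and no fold is given for it. Nothing is read from these counts, because presence across the 4 groups was part of how the members were chosen. Mrc1 was higher in 18-81 with miR-Neg alone: over both duplexes together its line difference was 0.22 on the log2 scale.

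Patterns over the 8 arrays, after subtracting each line's mean, gave each member's nearest genes among all 18791 by Pearson correlation. P2ry6 and Rab7b were nearest to each other (r = 0.994), and Aif1, a macrophage actin-binding protein, was among the 3 nearest of both (r = 0.988 with P2ry6 and 0.986 with Rab7b). Cd33, a sialic-acid-binding receptor of myeloid cells, was among the 3 nearest of Lyz2 (r = 0.99). Mpo was nearest to the junction protein gene Jam3 (r = 0.984). These points share arrays and scaling, and with 8 arrays the correlations are descriptions.

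The proximal promoters of 6 of the 10 members are in the RefSeq table on GRCm38.p6 (Lyz2, Mpo, Ctss, Mrc1, Itgam and Cebpb). The 250 bases before the start were searched on both strands for GAGGAA, a core that PU.1 binds, and for TTGCNNAA, a core of C/EBP sites. GAGGAA or its reverse complement was found 2 times for Mpo, 3 for Mrc1, 2 for Itgam, 1 for Ctss and 0 for Lyz2 and Cebpb, and 23.3% of 32851 promoters hold it. TTGCNNAA was found in none of these 6, and 9.6% of promoters hold it. The 250 bases of Mpo (chr11:87793534-87793783, plus strand) and of Mrc1 (chr2:14229164-14229413, plus strand) are printed because, of the genes with higher measured values in 70Z/3 after miR-125b that the table holds, these have the match, with GAGGAA and its reverse complement TTCCTC in capitals.
Mpo: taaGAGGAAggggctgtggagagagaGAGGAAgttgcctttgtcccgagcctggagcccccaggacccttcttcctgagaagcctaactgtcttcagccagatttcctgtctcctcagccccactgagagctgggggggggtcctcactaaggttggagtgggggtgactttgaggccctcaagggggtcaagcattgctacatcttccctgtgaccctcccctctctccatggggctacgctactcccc
Mrc1: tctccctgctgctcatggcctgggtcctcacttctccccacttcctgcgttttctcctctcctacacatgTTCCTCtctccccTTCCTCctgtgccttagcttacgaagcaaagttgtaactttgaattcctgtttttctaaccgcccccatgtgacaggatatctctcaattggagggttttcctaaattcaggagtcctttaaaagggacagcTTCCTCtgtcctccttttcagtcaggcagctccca
The Mpo matches start 247 and 224 bases before the start, and those of Mrc1 180, 167 and 35 bases before it on the minus strand. A match describes these letters and says nothing of binding.

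The setting of the members among other myeloid genes was taken from 8 lists of 111 further genes on the array, of which 71 could be tested and 29 were above background on 0 arrays. Between miR-125b and miR-Neg, 0 of the 71 passed the adjusted threshold in either line (limma). At an unadjusted p below 0.05, 7 were higher and 3 lower in 70Z/3 (10 of 71, beside 5.91% of all genes), and 0 were either in 18-81 (1.23% of all genes). The median of the 71 was −0.12 in 70Z/3, beside −0.14 over all genes, and 0.06 in 18-81, beside 0.03.

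Those 7 in 70Z/3, none past the adjusted threshold, were phagocyte receptors, a lysozyme and genes of the NADPH oxidase and signalling adaptor list. Clec7a, the β-glucan receptor Dectin-1, gave 417 and 165 with miR-Neg and 1690 and 3530 with miR-125b (log2 difference 3.22 ± 0.76, adjusted p = 0.749, limma). Lyz1, the near copy of Lyz2, gave 76.4 and 67.5 against 171 and 402 (1.87 ± 0.51, above background on 1 of 2 control arrays), and since the genes are alike in sequence, how far each probe reads the other gene was not tested. Cd33 gave 89.3 and 108 against 196 and 319 (1.35 ± 0.35). Tyrobp, the adaptor DAP12, gave 92.6 and 23.7 against 124 and 257 (1.93 ± 0.62), the dim control array, below background, again the lowest. Mpeg1, a pore-forming protein of macrophages, was 2.82-fold higher, Ncf1 differed by 0.99 ± 0.32 and Aif1 by 0.78 ± 0.29. The 3 lower ones were the repressor Gfi1 (−1.22 ± 0.40), the kinase Lyn (−0.93 ± 0.33) and the ATP-gated channel P2rx4 (−0.97 ± 0.36).

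Between the lines with miR-Neg, 35 of the 71 (49.3%) passed the adjusted threshold, 16 higher and 19 lower in 18-81, where 10.2% of all genes were higher and 11.5% lower (limma). Of the growth factor receptors 3 of 7 were higher in 18-81 and 0 lower: the β chain Csf2rb2 was at least 29-fold higher in 18-81, and the α chain Csf2ra was 26-fold higher (86.7 to 91.5 in 70Z/3, 2140 to 2500 in 18-81). The probes of the β chain Csf2rb differed in size: the brightest, below background in 70Z/3, was at least 121-fold higher in 18-81, and the other, above background on all 8 arrays, was higher by 2.39 on the log2 scale. Of the phagocyte receptors 5 rose and 3 fell, with Cd36 and Fcgr1 at least 58.4-fold and at least 32.6-fold higher in 18-81 and Clec7a and Cd33 at least 9.62-fold and at least 3.6-fold higher in 70Z/3. Itgb2, the CD18 partner of CD11b, was higher in 18-81 by 1.20 ± 0.29 on the log2 scale.

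Of the lipopolysaccharide and Toll-like receptor genes 6 of 9 were lower in 18-81 and 0 higher at the adjusted threshold. Tlr4, the lipopolysaccharide receptor itself, did not pass, at 1.14 ± 0.49 (adjusted p = 0.152, limma), and neither did Tlr9, at −0.23 ± 0.26. Tlr2 was at least 21.5-fold higher in 70Z/3, and Ly96, the MD-2 subunit of the lipopolysaccharide receptor, was lower in 18-81 by −1.81 ± 0.45. Among lysosomal proteases Ctsl was at least 260-fold higher in 70Z/3 and Ctsh at least 84.8-fold higher in 18-81, 2 of 12 that passed. Of the list of NADPH oxidase and signalling adaptor genes, Fcer1g and Ncf1 were higher in 18-81, by 6.22 and 4.21 on the log2 scale. Fgr was at least 23.8-fold higher there, and Mpeg1 and Aif1 were lower. Of the nucleotide receptor and Rab list 2 rose and 4 fell, with the ATP-gated channel P2rx7 at least 69.7-fold higher in 70Z/3, like P2ry6 in direction.

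**Figure D4:**
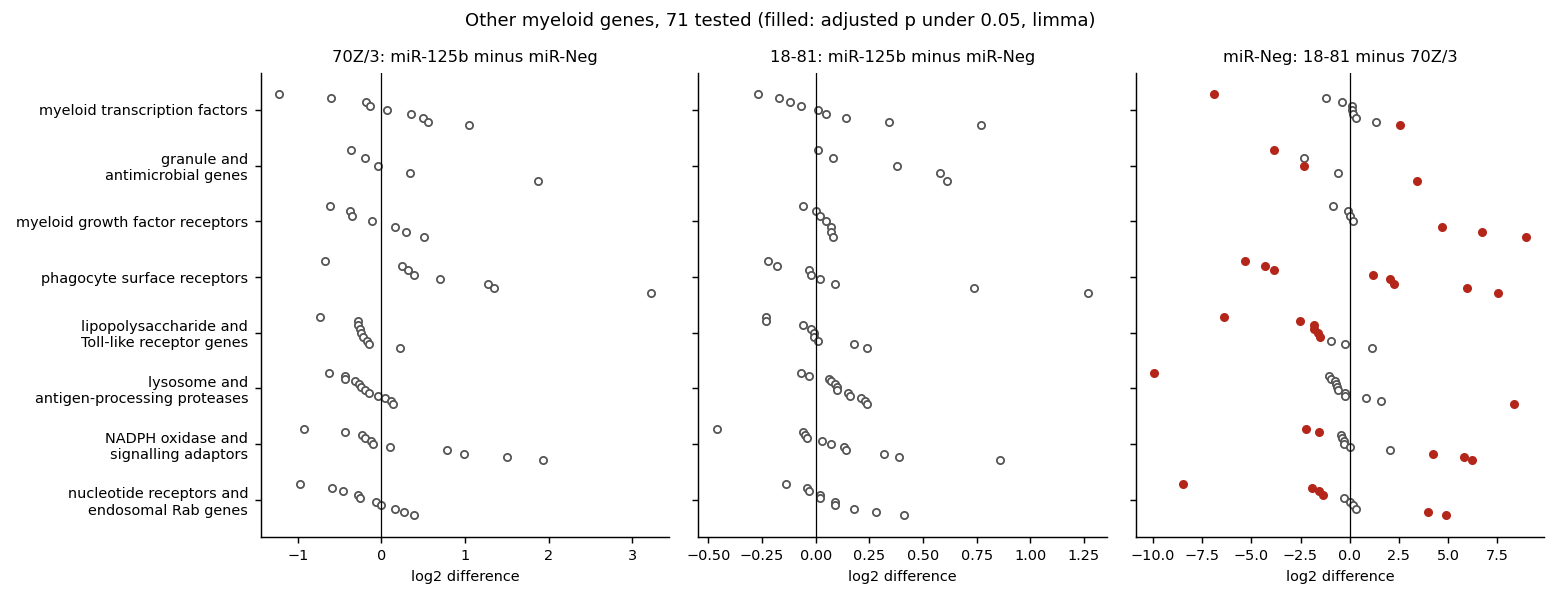
Log2 difference of each of the 71 other myeloid genes tested, by list, for miR-125b minus miR-Neg in 70Z/3 (left) and 18-81 (middle) and for 18-81 minus 70Z/3 with miR-Neg (right); each x axis has its own range, and filled marks have an adjusted p under 0.05 (limma). The left and middle panels hold 0 filled marks, and the right panel holds 35, of which 16 lie above 0 and 19 below.

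The factors that drive myeloid genes were split by presence. Spi1, which encodes PU.1, differed between the lines by 0.11 ± 0.73, while Cebpa, Cebpd, Cebpe and Maf were, like the member Cebpb, above background on 0 arrays. Irf8, a factor shared by B cells and macrophages, was higher in 18-81 by 2.57 ± 0.26, and Nfe2 was at least 29.4-fold higher in 70Z/3. Of the 14 granule genes 7 were above background on 0 arrays, among them S100a8, S100a9, Ltf and Ctsg, while Elane and Chil3 were above it on all 8. Of the 21 phagocyte receptors 9 were at 0 arrays, among them Adgre1 (F4/80), Msr1, Marco and Cd163, while Fcgr2b, Itgb2 and Ccr2 were present on all 8. These examples were chosen after their values were seen.

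Markers of other cell types were read beside these values, and their part in them was not tested. Of 10 T-cell markers 8 could be tested, with Cd8a and Thy1 at 0 arrays, and their summed scaled intensity in 70Z/3 was 25023 and 76699 with miR-Neg and 20425 and 22024 with miR-125b. Lck made up most of each sum, so the sums largely follow that gene. Lck, Zap70, Cd3d and Cd3e were lower with miR-125b in both replicate pairs. The pairs of Cd4 differed in sign, and Cd2, Cd3g and Cd8b1 were below background on every 70Z/3 array. Of 9 mast cell markers 7 were at 0 arrays, and of 10 stromal markers 5 were. The stromal gene Sparc differed in 70Z/3 by 4.64 ± 0.49 on the log2 scale between the duplexes (adjusted p = 0.143, limma). Whether this difference is linked to the higher values of the members was not tested. Vim, the other stromal marker that could be tested, did not share the rise of Sparc. Its mean was lower with miR-125b, and its replicate pairs differed in sign. The summed intensity of the B-lineage markers in 70Z/3 was 751845 and 1209808 with miR-Neg and 611586 and 758717 with miR-125b, and 0 of the 14 tested passed the adjusted threshold. Vpreb1 and Vpreb3 made up most of each sum, so the sums do not describe the list as a set. Single markers went both ways: Vpreb1 was lower with miR-125b in both replicate pairs, while Dntt and Cd79a were higher in both.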

How the data were processed

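Total RNA of the 8 samples was labelled with Cy3 and hybridised to 1-colour Agilent arrays, per the labels. The authors deposited scanner files whose intensity values were extracted with Agilent Feature Extraction 10.7.3.1, already background-subtracted, with probe positions on mm9, per the file headers. All 8 arrays lie on 1 slide: its columns follow the groups and its rows the replicate numbers, which means that a column effect and a group effect cannot be told apart. A deposited table of the whole series gives linear intensity values normalized by the authors by a method not given in these sources, and it served as an alternative (r between 0.9974 and 1 with the scanner values, log2 scale).

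Controls were dropped, as were spots flagged as outliers (140 to 203 per array), no spot was saturated, spots of a probe were averaged, and log2 intensity was taken minus each array's 75th percentile. To be tested, a gene needed 1 probe called well above background on both arrays in 1 or more groups, and its brightest probe stood for it. A RefSeq gene table (GRCm38.p6) supplied names, not positions, for 26413 probes by accession, 3859 by symbol and 735 by older symbol, and the other 24674 carry the name in the file. Group means of all 8 arrays were fitted together in limma 3.58.1 (R 4.3.3), with Benjamini-Hochberg adjustment at 0.05. The scripts were tested on simulated data.

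The members, the lists and the rule for named genes were chosen with earlier results of these data known. The rule named all 10 members, any list gene past the adjusted threshold and up to 4 per list by unadjusted p, and the 3 genes nearest in pattern; not all of these are printed, and 1 list gene is not reported here though counts include it. Same-numbered samples deviated together (r between 0.37 and 0.65 for the 6 group pairs), and 2 independent experiments are named in the design text. The numbers were therefore treated as pairs where differences by replicate pair are given. The fit reported holds no term for the pair, so its standard errors and adjusted p leave the pairing out. A term for it was tried only as another setting. Replicate number and slide row go together, so an effect of the experiment and a row effect cannot be told apart.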

Additional observations from a re-analysis of the deposited data

Results flagged for a closer look

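Ctss and Itgam, the latter by its CA-run probe, were singled out because both replicate pairs of 70Z/3 lay on one side of 0 and both pairs of 18-81 on the other. For Ctss the log2 difference between miR-125b and miR-Neg was −0.70 in 70Z/3 and 0.18 in 18-81, and for Itgam it was 0.63 and −0.09. Leaving out 1 array at a time took Ctss in 18-81 from −0.42 to 0.77 and Itgam in 70Z/3 from −0.02 to 1.28, so these opposite signs depend on single arrays. The difference between the lines was 0.87 ± 0.69 for Ctss and −0.72 ± 0.83 for Itgam, and by limma 0 genes passed the adjusted threshold for it, with 613 at an unadjusted p below 0.05.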

How the results depend on the processing

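The number of genes past the adjusted threshold for miR-125b in 70Z/3, 0 in the fit reported, was 1 with normexp background correction, 1 with the replicate block within each line, and between 0 and 2 when each array was left out in turn (2 without 70Z/3 miR-Neg replicate 2). In 18-81 leaving out 1 array gave 0 to 9 genes (9 without miR-125b replicate 2, 5 without replicate 1 and 1 without miR-Neg replicate 2), and for the difference between the lines' effects 0 to 5. Between the lines with miR-Neg, 4069 genes passed, 1873 where presence on all 8 arrays was required, 6721 with the replicate number as a block (replicate block), and 2733 to 4000 when each array was left out. Of the other myeloid genes, 35 passed there, 19 under the stricter filter, 47 with the replicate block and 28 to 36 when each array was left out. With the block, members past the threshold between the lines were 4 in place of 3, counts from which nothing is read. The pairing changed no call of a member in the duplex comparisons.

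In 70Z/3, normexp with an offset of 50 lowered the difference of dim members: Lyz2 to 0.31, Mpo to 0.08, P2ry6 to 1.31 and Rab7b to 3.24. Leaving out the dim control array gave 1.54 for Mpo and 1.87 for P2ry6, and leaving out the other control array 0.45 and 2.96. Lyz2 was at 1.62 without miR-125b replicate 2 and at 3.00 without replicate 1. Leaving out the brightest probe of Csf1r and of Itgam, an alternative chosen after seeing the data, put Csf1r at 0.06 in 70Z/3 and Itgam at 0.86 in 18-81. Between the lines, requiring presence on all 8 arrays left 1 of 4 members past the threshold, as did leaving out 18-81 miR-Neg replicate 1 (1 of 8). Presence calls stood at 42 of 80 under both other rules tried. Both rules kept the same probe for each member, among them the CA-run probe of Itgam, so the equal count does not test that choice. Of the other myeloid genes called between the lines, Myd88 lost its call under 9 of 20 other settings, Lyz1 under 5 of 19, Itgb2 and P2ry12 under 5 of 20 each and Ly96 under 3 of 20, and the cause was not tested. A block by slide was not run, since there is 1 slide. Signal over background limits Lyz2, Mpo, P2ry6 and Rab7b to bounds on their dim side, except where a control array was above background.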
